A study of Drosophila melanogaster with 34 samples.

Results

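The X chromosome of Drosophila melanogaster carried 8960 of the 48602 regions in 18 lists of protein binding sites made by chromatin immunoprecipitation and sequencing (ChIP-seq), which is 18.4% of them. The members were every region that a list placed on X, and every one is counted below; 29 further regions on the heterochromatic X sequence were left out. Of the 48081 regions on X, on chromosome 4 and on both arms of chromosomes 2 and 3, those on X made up 18.6%. The regions on X spanned positions 11412 to 22417339 of release 5 of the genome, 18.7% of the bases of these 6 arms. The remaining 39121 regions on the autosomal arms of the same lists served as the comparison, so that antibody, libraries and threshold were the same on both sides.

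The X is a sex chromosome: female flies carry a pair and males a single copy, and in males a chromatin complex that acetylates histone H4 raises the output of X genes. Histone deacetylases remove acetyl groups and are mostly known as parts of corepressors. CTCF marks insulators, elements that separate neighbouring domains of regulation. Caudal is a homeodomain activator of posterior patterning in the embryo and of gut identity later, and the ecdysone receptor (EcR) is the nuclear receptor through which pulses of the steroid ecdysone time moulting and metamorphosis.

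The 18 lists covered 8 proteins in 12 groups of target and stage. HDAC1, HDAC3, HDAC4a, HDAC6 and HDAC11 each had 2 lists from embryos of 0 to 12 h of a y; bw cn sp strain, all made against 1 shared input library. CTCF had 2 lists from S2, a cultured line of embryonic and, by textbook knowledge, male origin. Caudal had 1 list from 0 to 4 h embryos of the same y; bw cn sp strain with an antibody to Caudal. It also had 1 each from 4 to 8 h embryos, L3 larvae and 21-day adult females, in which a GFP tag (cad-GFP) was pulled down from y w, VK33 flies. EcR had 2 lists from white prepupae, labelled WPP10-11 and WPP30-33 without a unit of time, again pulled down by a GFP tag from y w, VK33 flies. The labels give neither the promoter of the tagged proteins nor the sex of embryos, larvae and prepupae; the adult sample is the single one labelled by sex. Each list pooled 1 to 3 libraries and is therefore 1 observation, and nothing says that the lists of 1 target came from separate collections.

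The lists held between 59 and 1012 regions on X, and no region on X overlapped another of its own list. No read counts came with the lists, so the depth behind a region is unknown. Equal depth on X and autosomes cannot be assumed, because males carry a single X and the adult sample alone is labelled by sex. The part of X copy number in the densities and widths below was not tested. Both EcR lists and the Caudal L3 list were cut from density tracks, hold narrow regions in steps of 100 bp, and carry an authors' score; the other 15 hold peaks with no score. A pair of lists went against their labels on X as elsewhere: 544 of the 619 X peaks in HDAC6 list 1 (87.9%) overlapped HDAC4a list 2, and 9 were identical to the base pair, whereas 328 (53.0%) overlapped HDAC6 list 2. The track name inside the Caudal L3 list mentions EcR; the labels were followed. No sequence is shown, because no genome of release 5 was at hand.

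Peak density on X differed from the autosomal arms in opposite directions for different proteins. It was high in both lists of HDAC3, HDAC6 and CTCF and in 1 of the 2 lists of HDAC4a and of HDAC11, and low for HDAC1, Caudal and EcR. In 8 of the 18 lists (44.4%) the X was less dense than each of the arms 2L, 2R, 3L and 3R, and in another 8 (44.4%) it was denser than each of them. The large autosomal arms lay below the range of the other large arms, X included, in 13.9% of cases and above it in 13.9%. Only 1 arm can be lowest or highest in a list, so both shares follow from the X counts and are no independent reference. The most for a single autosomal arm was 6 lists (33.3%), with 2L below the range and 3L above it.

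Among the deacetylases, HDAC11 showed the highest value on X. HDAC11 is the sole class IV enzyme of the fly, and its list 1 had 12.1 peaks per Mb on X against 7.29 on the autosomal arms, a ratio of 1.65, with the 4 large autosomal arms between 6.60 and 7.96 per Mb. HDAC11 list 2 had 12.9 on X against 12.5 per Mb and lay within the range of the other arms, so the excess held in 1 of its 2 lists. HDAC4a, a class IIa enzyme, was likewise split, at 41.1 against 31.6 per Mb in list 2, a ratio of 1.30, and 23.1 against 22.4 in list 1. HDAC3, the catalytic subunit of the SMRTER corepressor complex, had ratios of 1.19 and 1.15 in its 2 lists, and HDAC6, best known as a deacetylase of tubulin, 1.16 and 1.13. HDAC1 (Rpd3), the enzyme of the Sin3 and NuRD complexes, went the other way, with 23.4 against 25.3 per Mb and 30.9 against 34.9 per Mb, so both of its lists were less dense on X than on any large autosomal arm. CTCF had ratios of 1.14 in list 200 and 1.13 in list 500, with X just above arm 2R in both (45.2 against 44.9 and 24.0 against 23.2 per Mb).

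Caudal and EcR were less dense on X than on the autosomal arms at every stage sampled, though in adult females the difference was small. Caudal had 11.5 peaks per Mb on X against 19.5 on the autosomal arms at 0 to 4 h, a ratio of 0.589, and 31.8 against 49.9 at 4 to 8 h, a ratio of 0.637. In L3 larvae the ratio was 0.682 on 79 X regions, and in adult females it was 0.921, with 26.5 against 28.8 per Mb. The adult X lay just below arm 2L, the least dense autosomal arm at 26.9 per Mb, whereas the 0 to 4 h X lay well below arm 2R at 15.5 per Mb. EcR stood at 0.751 on 71 X regions at WPP10-11 and at 0.614 on 59 at WPP30-33. By its labels, the 0 to 4 h list differs from the later Caudal lists in strain and antibody as well as in stage. These cannot be told apart. The 3 later lists share strain and antibody, but the adult one alone is labelled by sex, and each stage has 1 list.

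Taken over the 12 groups, a density difference between X and autosomes in a common direction was not shown. The mean log2 ratio of density was -0.18 ± 0.42 (SD, n = 12 groups), with 5 groups above 0 (exact sign-flip permutation test, two-sided, p = 0.17, adjusted p = 0.25 over 6 tests). It was -0.05 without the 3 scored lists and -0.0029 with proteins in place of groups. With the upper 50% of each list by width or score it was -0.43 (exact permutation adjusted p = 0.013). The 15 lists without a score were cut by width, and peaks were narrower on X in most lists. That cut keeps fewer X peaks by construction, so this value is not independent of the widths below. Set against annotated genes, of which X holds 15.3% in a release 6 table, both HDAC1 lists (1.18 and 1.13) and the adult female Caudal list (1.17) stood above the autosomes, while the other Caudal lists (0.748 to 0.866) and the EcR lists (0.954 and 0.780) remained below.

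**Figure D1:**
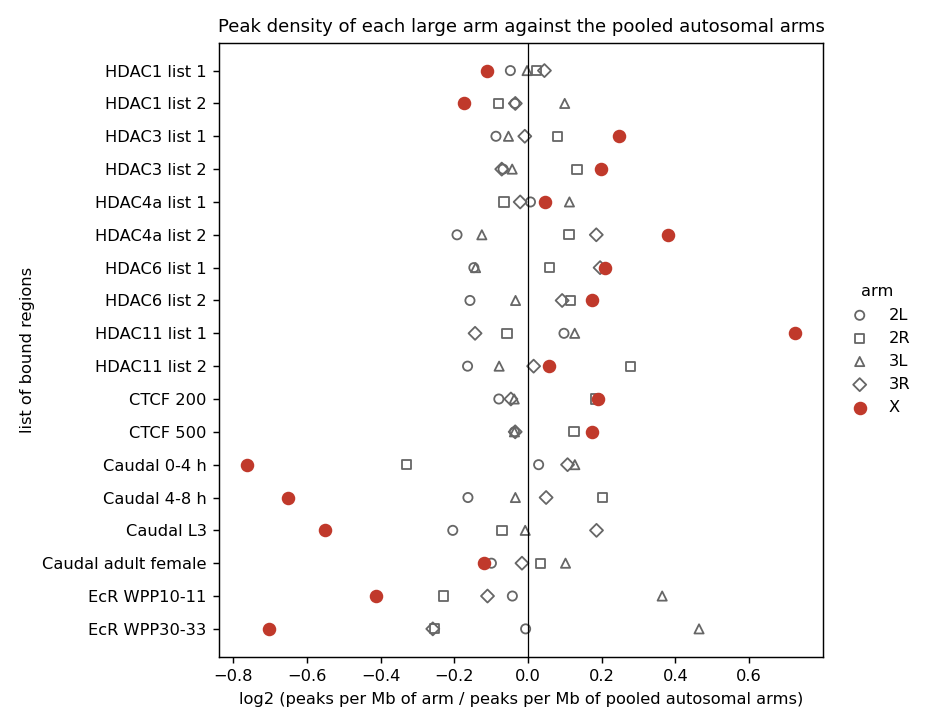
Peak density of each large arm, as log2 of peaks per Mb over the pooled autosomal arms, for the 18 lists; grey symbols are 2L, 2R, 3L and 3R and red points are X. The X lies left of the 4 autosomal arms in 8 lists, among them the 6 Caudal and EcR lists, and right of them in 8.

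Peaks on X were narrower than autosomal peaks of the same list for most proteins. The median width was smaller on X in 14 of the 18 lists and larger in 2. In 13 lists (72.2%) it was smaller than on each of the 4 large autosomal arms, and in no list was it larger than on each of them. Those arms lay below the range of the other large arms, X included, in 4.17% of cases. That share is held low by the X count itself, because only 1 arm can be lowest in a list. The most for a single autosomal arm was 2 lists (11.1%), for 3L. HDAC3, whose peaks are the broadest, had medians of 4404 bp on X against 5578 bp in list 1 and 5055 bp against 6090 bp in list 2. HDAC4a list 1 had 1349 bp against 1792 bp, HDAC11 list 1 had 2606 bp against 3375 bp, and the HDAC1 lists had 2521 bp against 2921 bp and 2431 bp against 2834 bp. CTCF sites measured 856 bp against 1059 bp in list 200 and 1181 bp against 1255 bp in list 500.

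The exceptions were few. HDAC11 list 2 (2388 bp against 2346 bp) and Caudal in adult females (998 bp against 967 bp) had slightly wider X peaks, and HDAC4a list 2 lay within the range of the autosomal arms at 2000 bp. Caudal peaks on X were narrower in both embryo lists, at 1616 bp against 1906 bp and 1532 bp against 1661 bp. Both EcR lists had a median of 435 bp on X and on the autosomal arms. The L3 medians of 135 bp and 235 bp differ by a single step of that list's 100 bp grid.

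Over the groups, the mean log2 ratio of median widths was -0.20 ± 0.22 (SD, n = 12 groups), a fold of 0.870, with 1 group above 0 (exact sign-flip permutation test, two-sided, p = 0.0039, adjusted p = 0.023). A difference in this ratio between deacetylases and the other proteins was not shown, at -0.03 on the log2 scale (exact permutation test over all 792 divisions, p = 0.90); it was -0.16 without 1 Mb at each arm end (exact permutation p = 0.040, adjusted p = 0.097) and -0.13 without Caudal L3 (adjusted p = 0.097). The call was lost with 8 proteins in place of groups (-0.20, exact permutation adjusted p = 0.094), without 1 Mb at each arm end (-0.11, adjusted p = 0.12), with the upper 50% of each list (-0.075, adjusted p = 0.070) and with mean widths (-0.14, adjusted p = 0.13), each of which left X narrower on average. Groups share inputs and proteins and so are not independent.

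**Figure D2:**
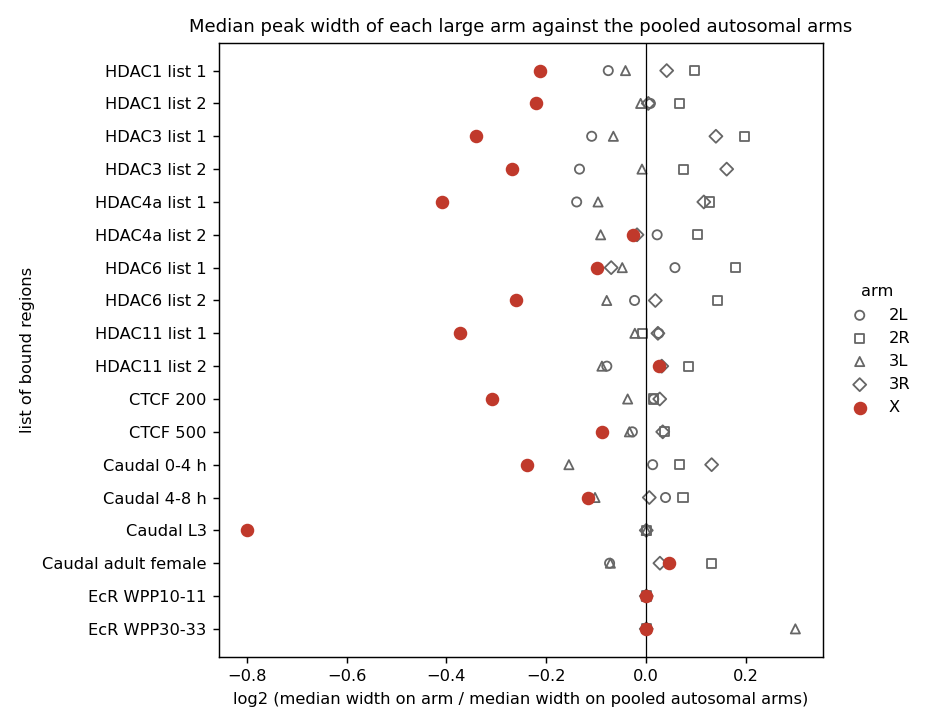
Median peak width of each large arm, as log2 of its ratio to the pooled autosomal arms, for the 18 lists; grey symbols are the autosomal arms and red points are X. The X point lies left of the autosomal arms in 13 lists, and the L3 point at -0.80 is 1 grid step.

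The share of bases covered by peaks combined both measures. HDAC3 covered 14.04% and 14.7% of X against 14.8% and 16.0% of the autosomal arms, so that its lists had more peaks per Mb but a smaller covered share. HDAC4a list 2 (11.0% against 8.25%), HDAC6 list 1 (7.44% against 6.63%), both HDAC11 lists (4.41% against 3.41% and 4.04% against 3.63%) and CTCF 500 (3.14% against 3.06%) were the 5 lists that covered more of X. Caudal covered 2.19% of X against 4.77% of the autosomal arms at 0 to 4 h and 5.57% against 10.0% at 4 to 8 h.

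Along the X, binding was counted in 22 bins of 1 Mb, numbered from the left end of the arm, and each count was set against the mean of its list over all arms. Of the 396 counts on X, 8 (2.02%) reached 2 fold of the list mean, against 2.85% of bins over all arms and lists, and 59 (14.9%) lay at 0.5 of it or less, against 10.9%. The low counts came mostly from the lists that were sparse on X. EcR had 13 of its 22 X bins that low at WPP10-11, where 41% of bins over all arms were, and 9 at WPP30-33, against 23.1%. Caudal had 8 at 4 to 8 h, against 10.3% over all arms, 7 at 0 to 4 h, against 12.8%, and 7 in L3 larvae, against 16.2%.

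The bin at 1 to 2 Mb had the highest mean over the lists, 1.46 fold ± 1.07 (SD, n = 18 lists), and the bin at 17 to 18 Mb the next, 1.36 fold ± 0.51. The first was carried by EcR, which had 4.73 fold and 3.52 fold of its list means there, with HDAC11 list 1 also above 2 fold and the median list at 1.08. At 17 to 18 Mb 14 of 18 lists were above their own means, with HDAC11 list 1 (23 peaks, 2.81 fold) and HDAC4a list 2 (62 peaks) the highest in fold. At the other extreme, the last full bin, at 21 to 22 Mb next to the centromeric heterochromatin, stood at 0.450 fold ± 0.25, with no list above its mean and 0 peaks of Caudal at 0 to 4 h. The bin at 14 to 15 Mb followed at 0.650 fold ± 0.31, where HDAC1 list 1 had 6 peaks.

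The densest bin differed between lists, and some were shared by several proteins. Both HDAC3 lists were highest at 15 to 16 Mb, with 49 and 39 peaks, where HDAC1 list 1 (37 peaks) and HDAC11 list 2 (22 peaks) also had their maximum and both EcR lists had 0. Both HDAC4a and both HDAC6 lists were highest at 8 to 9 Mb, with 34, 63, 53 and 43 peaks. Of these, HDAC4a list 2 and HDAC6 list 1 are the pair that went against its labels, so their match may not be between proteins. CTCF was highest at 16 to 17 Mb in list 200 (61 peaks) and at 17 to 18 Mb in list 500 (36 peaks). The Caudal lists had no common maximum: it lay at 2 to 3 Mb at 0 to 4 h (21 peaks), at 19 to 20 Mb at 4 to 8 h (66 peaks) and at 13 to 14 Mb in adult females (45 peaks).

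Across the 22 bins, Spearman's rho between lists of different proteins had a median of 0.28 over 140 pairs, against 0.37 over the 95 autosomal bins, and 21 pairs were below 0 on X against 3 on the autosomes. Bins share gene density and mappable length, and these values are descriptions. EcR at WPP10-11 and HDAC1 list 1 had a rho of -0.35 on X and 0.37 on the autosomes. The highest value on X, 0.95, belonged to HDAC4a list 2 and HDAC6 list 1, the pair that went against its labels.

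Counts per bin were not shown to be more or less even on X. The ratio of variance to mean was lower on X by 0.28 on the log2 scale ± 0.46 (SD, n = 12 groups), with 3 groups above 0 (exact sign-flip permutation test, two-sided, p = 0.064, adjusted p = 0.13). It passed the threshold without 1 Mb at each arm end (-0.58), with the upper 50% of each list (-0.44), in 2 Mb bins (-0.31) and without the EcR WPP10-11 list (-0.37, exact permutation adjusted p = 0.021). The coefficient of variation differed by -0.05 (exact permutation adjusted p = 0.72).

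**Figure D3:**
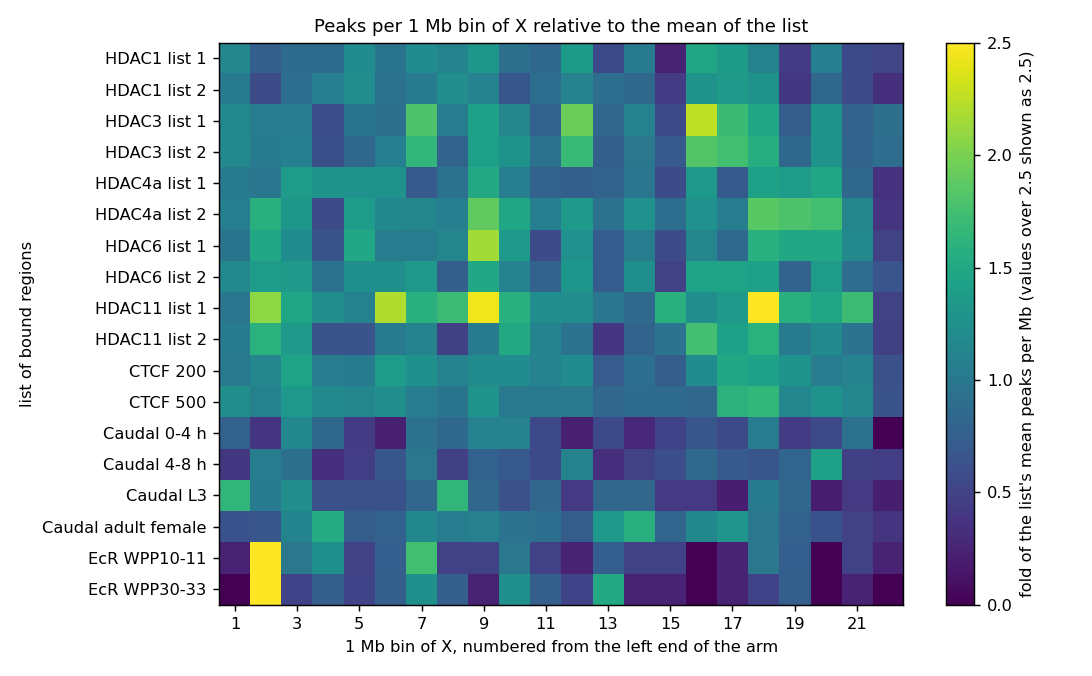
Peaks in each of 22 bins of 1 Mb along X, as fold of the mean peaks per Mb of the list over all arms, for the 18 lists, with higher values drawn as 2.5. The second bin is bright in both EcR rows, and the last bin is dark in most rows. The EcR rows and the Caudal rows apart from adult females are on average darker than the deacetylase and CTCF rows.

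On X, the densest stretch of EcR binding lay near the left end. Between 1 and 2 Mb lay 19 of the 71 X regions at WPP10-11 (26.8%, 95% Wilson interval 17.9% to 38.1%) and 14 of the 59 at WPP30-33 (23.7%, 14.7% to 36.0%). These intervals cover counting error only. In every other list except the EcR lists the same bin held between 2.72% and 6.90% of the X peaks. Bins as dense were found on the autosomes too: 1 of 22 X bins reached 2 fold of the list mean at each stage, against 10 and 14 of 95 autosomal bins and 9.4% and 12.8% of bins over all arms. The densest autosomal bins held 21 regions at WPP10-11 and 26 at WPP30-33. At both times 11 of the X regions lay within 1.8 to 1.9 Mb. The X region of the highest score was in this group at both times, namely X 1843712 to 1846546 with an authors' score of 9.34 at WPP10-11 and X 1843987 to 1847421 with 10.2 at WPP30-33, each of rank 12 in its list. A second strong region next to it, named after its score was seen, was X 1840912 to 1843146 at WPP10-11 and X 1840787 to 1842921 at WPP30-33. Both regions overlapped between the times. The genes broad, which encodes an early ecdysone-induced set of zinc finger factors, and ultraspiracle, the partner receptor of EcR, lie toward the left end of X on the polytene map. No gene was assigned to any region, because the gene table at hand is of another release. Whether any EcR region lies at either gene was not tested.

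Both EcR lists had 0 regions at 15 to 16 Mb and 19 to 20 Mb, and the widest stretch of X with no EcR region at WPP30-33 ran for 2363765 bp from 18579122. Outside the bin, a region of high score at both times, again named for its score, was X 2540012 to 2540846, with 9.12 at WPP10-11 and as X 2539987 to 2540821, with 9.90 at WPP30-33.

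**Figure D4:**
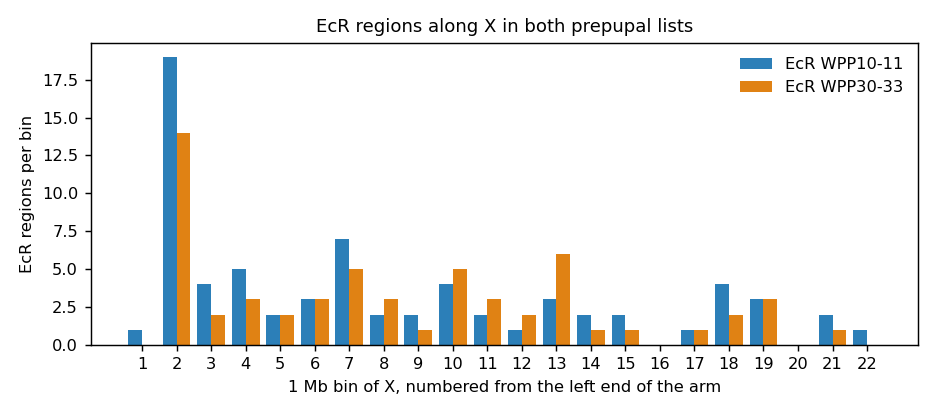
EcR regions per 1 Mb bin of X at WPP10-11 and at WPP30-33. The second bin holds 19 and 14 regions, and no other bin exceeds 7.

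The share of EcR regions found at both times was compared between X and the autosomes, with no test of its own. Of the 59 X regions at WPP30-33, 41 (69.5%, 56.9% to 79.8%) overlapped a region at WPP10-11, against 51.1% (46.3% to 55.8%) of 419 on the autosomal arms, where single large arms gave 48.0% to 56.1%. Of the 71 X regions at WPP10-11, 57.7% (46.2% to 68.5%) overlapped a region at WPP30-33, against 52.2% on the autosomal arms, within the range of 44.0% to 59.6% of the single large arms. Without the 1 to 2 Mb bin, an alternative chosen once the values were known, the X share at WPP30-33 was 64.4%. Regions bound at both times had a median authors' score of 8.03 at WPP10-11, against 7.64 for X regions of that time alone, as on the autosomes with 8.11 against 7.60.

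Lists of 1 target were not shown to share more or less of their regions on X in general. Over 5 deacetylase pairs, the CTCF pair and the EcR pair, the share of the shorter list found in the other one was higher on X by 3.92 percentage points ± 8.70 (SD, n = 7 pairs), in 5 of 7 pairs (exact sign-flip permutation test, two-sided, p = 0.31, adjusted p = 0.38, where the smallest possible p was 0.016). Without the EcR pair the difference was 1.50 points and without the HDAC4a pair 2.93, neither passing the test. Pairs of Caudal stages were not in this test, whereas EcR was entered across its times. Over all 13 pairs of lists of 1 protein, the share was higher on X in 7, with a median difference of 1.16 points. HDAC3 (92.9% on X against 89.7%), HDAC4a (36.5% against 26.6%), HDAC6 (53.0% against 46.4%) and CTCF (92.7% against 91.6%) lay above their autosomal shares. HDAC1 (81.5% against 86.3%) and HDAC11 (14.1% against 21.1%) lay below. Over all 153 pairs of lists, the overlap on X lay above that on each large autosomal arm in 48 pairs (31.4%) and below in 40 (26.1%). The 17.2% and 18.3% of cases for the autosomal arms, with X in their range, follow from these counts and are no independent reference. Single autosomal arms lay above the others in 7.19% to 24.2% of pairs and below in 7.19% to 24.8%.

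Overlap between some Caudal stages was lower on X, with no test of the single pairs. Of the 594 adult female X peaks, 30 (5.05%, 3.56% to 7.12%) overlapped the 4 to 8 h list, against 12.8% on the autosomal arms. Of the 257 X peaks at 0 to 4 h, 24 (9.34%, 6.36% to 13.5%) did so, against 14.4%. The 4 to 8 h list covers 5.57% of X and 10.0% of the autosomes, which moves with both values; its part in them was not tested. Early embryos and adult females shared 30.4% (25.1% to 36.2%) of the 0 to 4 h peaks on X and 27.9% on the autosomes, where the adult list covers 3.26% and 3.41%. No X region of any Caudal list lay in all of the other Caudal lists, and on the autosomes such regions were also rare, at most 4 in a list.

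Overlap between different proteins was, on average over partners, 1.66 percentage points higher on X ± 2.82 (SD, n = 12 groups), in 9 of 12 groups (exact sign-flip permutation test, two-sided, p = 0.057, adjusted p = 0.13). With midpoints within 250 bp as the criterion it was 1.18 points and passed (exact permutation adjusted p = 0.0059), without the Caudal L3 list it was 2.16 points and passed (adjusted p = 0.023), and with the upper 50% of each list it was 0.578 points (adjusted p = 0.63). Single pairs stood far from this average. Of 280 ordered pairs of lists of different proteins, 6 (2.14%) had an overlap at least 20 points higher on X and 0 one at least 20 points lower, and among 1120 comparisons of a large autosomal arm with the rest, 0 were that much higher and 1 (0.0893%) that much lower. The pairs described next were chosen for this difference after their values had been seen and carry no test.

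The first was Caudal at 4 to 8 h with HDAC3. On X, 437 of the 712 Caudal peaks (61.4%, 57.8% to 64.9%) overlapped HDAC3 list 1 and 436 (61.2%) overlapped HDAC3 list 2, against 33.8% and 35.5% of the 4875 autosomal peaks. The 4 large autosomal arms ranged from 32.0% to 34.9% with list 1 and from 33.3% to 36.6% with list 2, so X stood apart from each of them, although HDAC3 covers slightly less of X than of the autosomes. With HDAC4a list 2, which covers more of X (11.0% against 8.25%), the overlap was 51.0% against 28.0%, but with HDAC4a list 1 it was 9.97% against 9.25%. The HDAC1 lists gave 16.6% against 14.6% and 17.8% against 19.8%. On X, HDAC6 list 1 overlapped 32.7% of the Caudal peaks and HDAC6 list 2 overlapped 30.9%, with autosomal shares not given here. With any deacetylase list the overlap was 85.3% on X against 63.7%, so the lists named above are not all that shared peaks with Caudal.

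The same overlap can be written as densities, which adds no independent evidence. Caudal peaks of 4 to 8 h overlapping HDAC3 list 1 numbered 19.5 per Mb on X and 16.9 per Mb on the autosomal arms, a ratio of 1.16. Those outside it numbered 12.3 against 33.0 per Mb, a ratio of 0.372, and the values with list 2 were 1.10 and 0.383. Peaks of this list outside all lists of other proteins were rarer still, with 99 on X (4.42 per Mb) and 1667 on the autosomes (17.1 per Mb), a ratio of 0.259. From the side of HDAC3 the sharing was alike: 52.4% of the HDAC3 list 1 peaks on X and 54.7% on the autosomes overlapped this Caudal list.

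The other Caudal lists gave other values. At 0 to 4 h the ratio of X to autosomal density was 0.724 inside and 0.568 outside HDAC3 list 1, and 0.591 and 0.589 with HDAC3 list 2. In L3 larvae it was 0.420 inside and 0.778 outside list 1, the opposite direction, and in adult females 0.850 inside and 0.934 outside. With all deacetylase lists together, the ratio inside and outside was 0.593 and 0.579 at 0 to 4 h, 0.852 and 0.259 at 4 to 8 h, 0.518 and 0.858 in L3 larvae, and 0.960 and 0.861 in adult females. CTCF 200 had 1.14 on both sides. The 4 to 8 h list came from 1 library and an antibody to GFP, and the difference between stages was not tested.

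The second pattern joined EcR and HDAC11 list 1. Of the EcR regions on X, 23 of 71 at WPP10-11 (32.4%, 22.7% to 43.9%) and 20 of 59 at WPP30-33 (33.9%, 23.1% to 46.6%) overlapped this list, against 9.47% and 11.0% on the autosomal arms, of which the highest single arm reached 13.8% and 13.3%. HDAC11 list 1 covers 4.41% of X and 3.41% of the autosomes. Without the 1 to 2 Mb bin the X shares were 30.8% and 28.9%. HDAC11 list 2 had 0 overlaps with EcR on X outside that bin, and 2 at each time within it, so the sharing was found with 1 of the 2 HDAC11 lists. Every other list of another protein also had a higher overlap with HDAC11 list 1 on X than on the autosomes, among them HDAC1 list 1 (24.9% against 14.1%), HDAC6 list 2 (23.9% against 13.4%) and Caudal in adult females (17.7% against 8.57%). From the side of HDAC11 list 1, 7.78% of its X peaks overlapped EcR at WPP10-11 and 6.30% at WPP30-33, against 5.06% and 5.62% on the autosomes.

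HDAC11 list 2 overlapped HDAC3 on X, with 51.7% of its 290 X peaks in HDAC3 list 2 (46.0% to 57.4%) against 31.4% on the autosomes, and 50.3% against 30.3% in HDAC3 list 1. HDAC11 list 1 gave no such difference, with 28.9% against 29.8% in HDAC3 list 2 and 29.6% against 27.1% in HDAC3 list 1. HDAC11 list 2 had a lower overlap with Caudal at 4 to 8 h on X, 37.2% against 51.2%, the lowest difference of any ordered pair of different proteins.

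**Figure D5:**
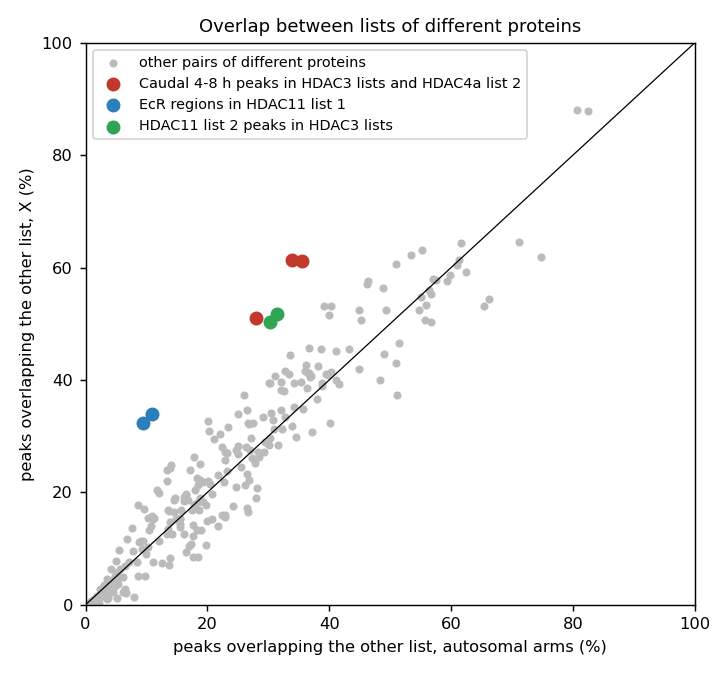
Share of the peaks of one list that overlap another, on X against the autosomal arms, for 280 ordered pairs of lists of different proteins; the line marks equal shares. Most pairs lie near the line, and the coloured pairs (Caudal 4 to 8 h in HDAC3 and HDAC4a list 2, EcR in HDAC11 list 1, HDAC11 list 2 in HDAC3) lie well above it.

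Merging all lists gave 2145 regions on X, or 95.7 per Mb against 106 per Mb on the autosomal arms, and they covered 32.7% of X against 39.7%. Regions found in 1 list alone made up 38.5% on X and 43.1% on the autosomes, and regions in 10 or more lists 7.32% and 6.20%. The makeup of the regions followed the densities above. Deacetylases without any other protein accounted for 29.3% of merged regions on X against 19.2%, CTCF alone for 10.8% against 7.44%, and Caudal alone for 18.1% against 29.9%.

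The merged X region with the most lists, X 6984442 to 7006031, carried peaks in 16 of the 18, lacking Caudal L3 and EcR at WPP30-33; the autosomal maximum was 17. Of the 5 regions with 15 lists, X 16203523 to 16234155 had all 10 deacetylase lists and neither EcR list. The region X 1832112 to 1848872, which includes the strongest EcR regions, had 8 deacetylase lists and lacked both HDAC3 lists and Caudal L3. The others were X 5778217 to 5800542, X 4800427 to 4816076 and X 3669228 to 3678389, and each lacked Caudal L3 and HDAC11 list 2. The 4 longest of the 10 regions with 14 lists were X 15590125 to 15635222, X 21208042 to 21248983, X 503676 to 538210 and X 2027512 to 2054398.

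Some of the widest peaks of whole lists lay on X. The widest peak of HDAC4a list 2 was X 1349100 to 1378230 (29131 bp). HDAC6 list 1, which matched that list against its label, had its second widest, X 1352618 to 1375365, at the same place. The widest peak of HDAC11 list 2 was X 1751078 to 1770010 (18933 bp), which overlapped all of the other deacetylase lists. A different place, near 2.19 Mb, gave the widest X peak of HDAC1 list 1 (X 2185968 to 2203143), HDAC1 list 2 (X 2186189 to 2201353), HDAC6 list 2 (X 2185760 to 2203131) and HDAC11 list 1 (X 2185732 to 2202948). It was free of HDAC3 and CTCF and carried Caudal at 0 to 4 h, in L3 larvae and in adult females, and EcR at WPP10-11.

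HDAC3 had its widest X peaks elsewhere, X 19507348 to 19540515 (33168 bp) in list 1 and X 15591085 to 15634647 (43563 bp) in list 2, and the widest of HDAC4a list 1 was X 15221983 to 15228595. The widest CTCF peaks on X were X 9578071 to 9582562 in list 200 and X 3634549 to 3639071 in list 500. For Caudal they were X 7226946 to 7234505 at 0 to 4 h, X 3055991 to 3063074 at 4 to 8 h and X 7984383 to 7988625 in adult females. The L3 region of the highest score on X, X 8189212 to 8189846 with an authors' score of 7.63, overlapped an EcR region of WPP10-11 and was also bound by Caudal at 0 to 4 h and in adult females.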

How the data were processed

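The authors deposited 18 lists of regions as chromosome, start and end, with coordinates on release 5 of the BDGP genome per the submitters' processing notes, with aligner and peak caller not given in the sources used here. In 3 lists the authors deposited a score as well, whose scale is not stated. Per the file headers these were cut from density tracks with a maximum gap and a minimum run of 100 bp. Per the labels' protocols material was fixed in 1.8% formaldehyde, and per the series record reads were 36 bp. Arm lengths are the lowest start to the highest end over all lists. Peaks were assigned to bins by midpoint and overlaps needed 1 bp. X was set against the autosomal arms within each list, lists were averaged to groups, and the ratios were tested by exact permutation over groups or pairs, with Benjamini-Hochberg adjustment over 6 tests and a threshold of 0.05. Regions were named by a rule: the widest or highest-scoring X peak and densest bin per list, the 10 merged regions in the most lists, and the 2 highest and 2 lowest bins. Members, lists and tests were chosen with earlier results of these data known. Coordinates are 1-based. The density and width tests were run on simulated lists, and the other tests were not. Python 3.11.15, numpy 2.4.6 and scipy 1.17.1 were used.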

Additional observations from a re-analysis of the deposited data

Results flagged for a closer look

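The log2 ratio of the median Caudal width on X to that on the autosomal arms was negative at 0 to 4 h (-0.24), at 4 to 8 h (-0.12) and in L3 larvae (-0.80) and positive in adult females (0.045), so the stages differed in direction with 1 list each. The difference was not tested, and the L3 value is 1 step of a 100 bp grid.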

How the results depend on the processing

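No paired analysis was possible because each list pools its numbered libraries and the numbers pair no lists across targets. The density ratio passed with the upper 50% of each list (-0.43). That cut was by width in the lists without a score and so keeps fewer of the narrower X peaks by construction. Of 25 alternatives, 24 kept the sign of the density ratio, and per annotated gene it was 0.17. The width ratio lost its call with the upper 50% (-0.075), without 1 Mb at arm ends (-0.11), with 8 proteins (-0.20) and with mean widths (-0.14), and leaving out each of the 18 lists in turn gave -0.22 to -0.15, the last without Caudal L3, with the call kept. The bin spread passed with the upper 50% (-0.44), without arm ends (-0.58), in 2 Mb bins (-0.31) and without EcR WPP10-11; leaving out each list gave -0.37 to -0.21. Different-target overlap passed with midpoints within 250 bp (1.18 points) and without Caudal L3, and leaving out each list gave 1.17 to 2.16 points. Same-target overlap and the class comparison of widths passed under no alternative; the class difference ranged from -0.16, without arm ends, to 0.0078. The cause of these changes was not tested. Leaving out the Caudal and EcR lists and the bin at 1 to 2 Mb were alternatives added after seeing the data. Removing that bin from X alone lowers the EcR density ratios by construction, to 0.576 and 0.490. Depth per region is unknown, and 59 to 79 X regions in the EcR and L3 lists limit their values.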
